A study of Mus musculus with 7 samples.

Results

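The collagen genes outside type IV were described in the DNase-Seq lists of cultured mouse podocytes. They were taken as the protein-coding genes of mm10 (GENCODE vM21) on chromosomes 1 to 19 whose symbol has the form Col, number, a, number, without the *Col4a* genes, and 38 genes met this rule. All 38 were among the 21835 protein-coding genes that had a peak within 500 nt of a transcription start site (TSS) in each of the 3 deposited lists. The cells were conditionally immortalised podocytes, the visceral epithelial cells of the glomerulus, differentiated and kept on plates coated with collagen I. After growth arrest they spent 36 h in 5 mM glucose without a mimic (NG), or in 25 mM glucose. The high-glucose cells received 50 nM of either a nontargeting mimic (HG+NT) or a miR-93 mimic (HG+miR-93). Each condition had 2 replicates, and 1 sample of genomic DNA, digested with less DNaseI, was the input. Because the deposited peak list of a condition joins its replicates, no spread between replicates was available and no test between conditions was run. The NG cells received no mimic, so that glucose and transfection cannot be told apart in any comparison with NG.

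Collagens are triple helices of 3 alpha chains, each chain from a gene of its own or from copies of 1 gene, and they are the main structural proteins of the extracellular matrix. Fibrillar collagens form the banded fibres of interstitial tissue, FACIT collagens sit on the surface of these fibres, type VI forms beaded filaments beside cells, and the other classes form networks, anchoring fibrils or membrane proteins. The filter of the glomerulus itself rests on type IV collagen, which is not in this group, whereas interstitial collagens accumulate when a glomerulus scars. DNaseI cuts DNA that is not wrapped in nucleosomes, and accessible promoters therefore give peaks of cut fragments.

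The lists held 846027 to 1036304 peaks with median widths of 1401 to 1790 bp. A listed peak could have a p as large as 0.9, and none of the strongest peaks at the 38 collagen promoters had a −log10 q above 0. The peaks were therefore read for their strength and position, and their presence was not counted. Strength was given by the authors' fold over the local mean of the input, ranked within each list as a percentile over the 21835 genes. It was also given by the pileup, which is the number of fragments at the highest summit of the promoter's peaks, recovered from fold and p and scaled to the input's depth. Where 3 values follow each other without a list, they stand in the order NG, HG+NT, HG+miR-93. Percentiles, and mean percentiles over the 3 lists, are by fold where no measure is named. Of all peaks overlapping a gene's promoters, the one with the highest fold was taken, so that genes with more TSSs could draw on more peaks. The pileup's 95% exact Poisson interval covers counting error only. It was set around the summit chosen as the highest and does not cover the error of that choice. The size of this error, which may differ between lists of different depth, was not tested. Over all listed peaks the summits were thinly covered, with medians of 6, 10 and 12 fragments. The depth was 2.24, 3.85 and 5.15 times that of the input. The highest summit at the promoter of *Col1a2* had 10, 17 and 22 fragments. Where the input was at its background mean of 1.43, 9, 10 and 11 fragments in NG gave percentiles of 62.7, 72.3 and 81.3, so that 1 fragment moved a promoter by about as much as many of the differences below. In HG+miR-93, 20 and 21 fragments gave 72.2 and 77.1.

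Across the 38 genes the promoters were of middling to low strength. The median percentile by fold was 43.5 (quartiles 31.2 and 62.7), 48.4 (22.8 and 70.2) and 72.2 (34.5 and 85.7), beside 50.9, 49.9 and 49.8 for all genes. By pileup it was 37.97, 40.2 and 42.5, beside 51.5, 49.4 and 48.4. Both measures placed the collagen promoters below the middle in NG, but the high rank in HG+miR-93 was seen by fold and not by pileup. The median pileup was 4.47, 4.42 and 4.57, against 5.81, 4.93 and 4.86 for all genes, and the single promoters ranged from 1.82 to 9.72.

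**Figure D1:**
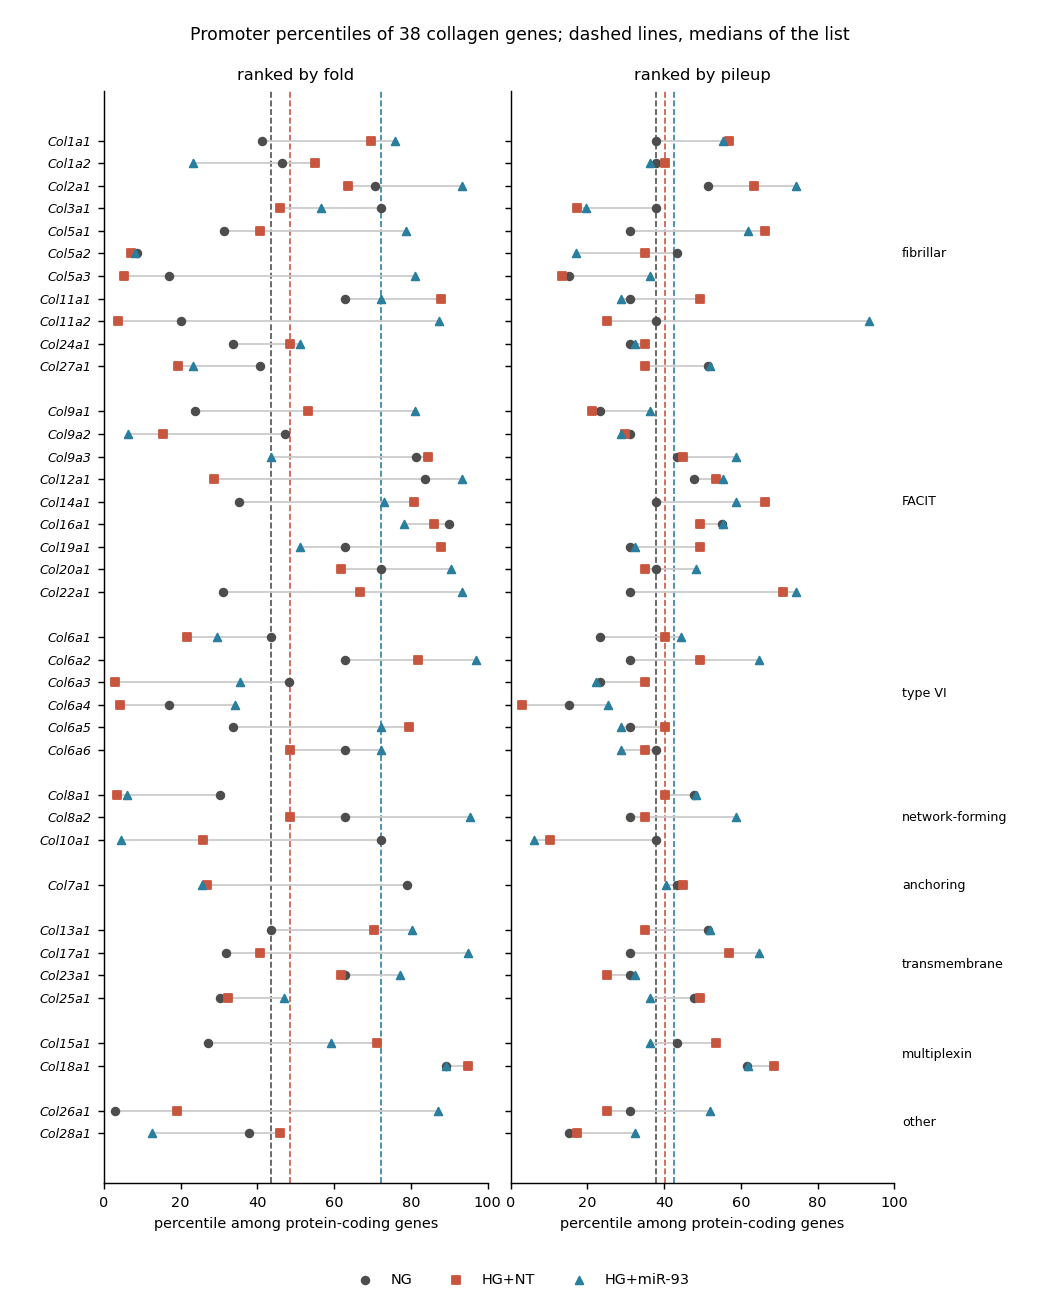
Percentile of each collagen promoter among 21835 protein-coding genes, ranked by fold (left) and by pileup (right), with circles for NG, squares for HG+NT and triangles for HG+miR-93, grouped by class of collagen; dashed lines are the medians of the 38 genes. By fold the HG+miR-93 median is at 72.2 and the others are at 43.5 and 48.4, whereas by pileup the 3 medians lie between 37.97 and 42.5.

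From NG to HG+NT the percentile by fold was higher at 19 of the 38 promoters, where 50.2% of all genes had a higher one, and the median change was 0.58 points. The sign of this median was not stable, since it was -2.08 with the folds of all promoter peaks summed and -1.32 without the collagen genes on chromosomes 8, 15 and 19. HG+miR-93 had 25 of 38 above HG+NT (background 50.2%), with a median change of 8.75, and 24 of 38 above NG (background 49.7%), with a median change of 15.5. These medians were 2.86 and 1.27 with promoters ranked by pileup and 2.18 and 0.341 with folds summed. Over the 7 genes with a summit within 500 nt in all lists they were -3.33 and 21.8, so that the first changed sign. The comparisons share lists, so their counts are not independent of each other. The median ratio of pileups was 0.960 for HG+NT over NG, 1.03 for HG+miR-93 over HG+NT and 1.015 for HG+miR-93 over NG, where all genes had 0.894, 0.953 and 0.846.

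Few collagen promoters differed by 1.5 times in pileup. In HG+NT the pileup was at least 1.5 times that of NG at 2 collagen genes, *Col22a1* and *Col5a1* (5.26% of 38, background 5.3%), and lower by as much at 2, *Col10a1* and *Col6a4* (background 16.9%). HG+miR-93 exceeded HG+NT at *Col11a2* and *Col6a4* (2 of 38, background 2.17%) and was lower by as much at none (background 5.68%). Relative to NG it was higher at *Col11a2* and *Col22a1* (2 of 38, background 4.26%) and lower at *Col10a1* and *Col5a2* (2 of 38, background 22.2%). These counts moved with the processing, and the higher ones against NG were 7 of 38 with each pileup divided by the median of its chromosome (8.71% of all genes), 4 with the largest number of fragments that solved fold and p (4.95%) and 0 of 11 with summits within 500 nt (4.55%). The 95% intervals did not overlap at 1 promoter only, *Col11a2* in the comparison of the high-glucose lists, where 0.435% of all genes had intervals apart. They overlapped at all 38 between NG and HG+NT (1.24% of all genes apart) and between NG and HG+miR-93 (1.42% apart).

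**Figure D2:**
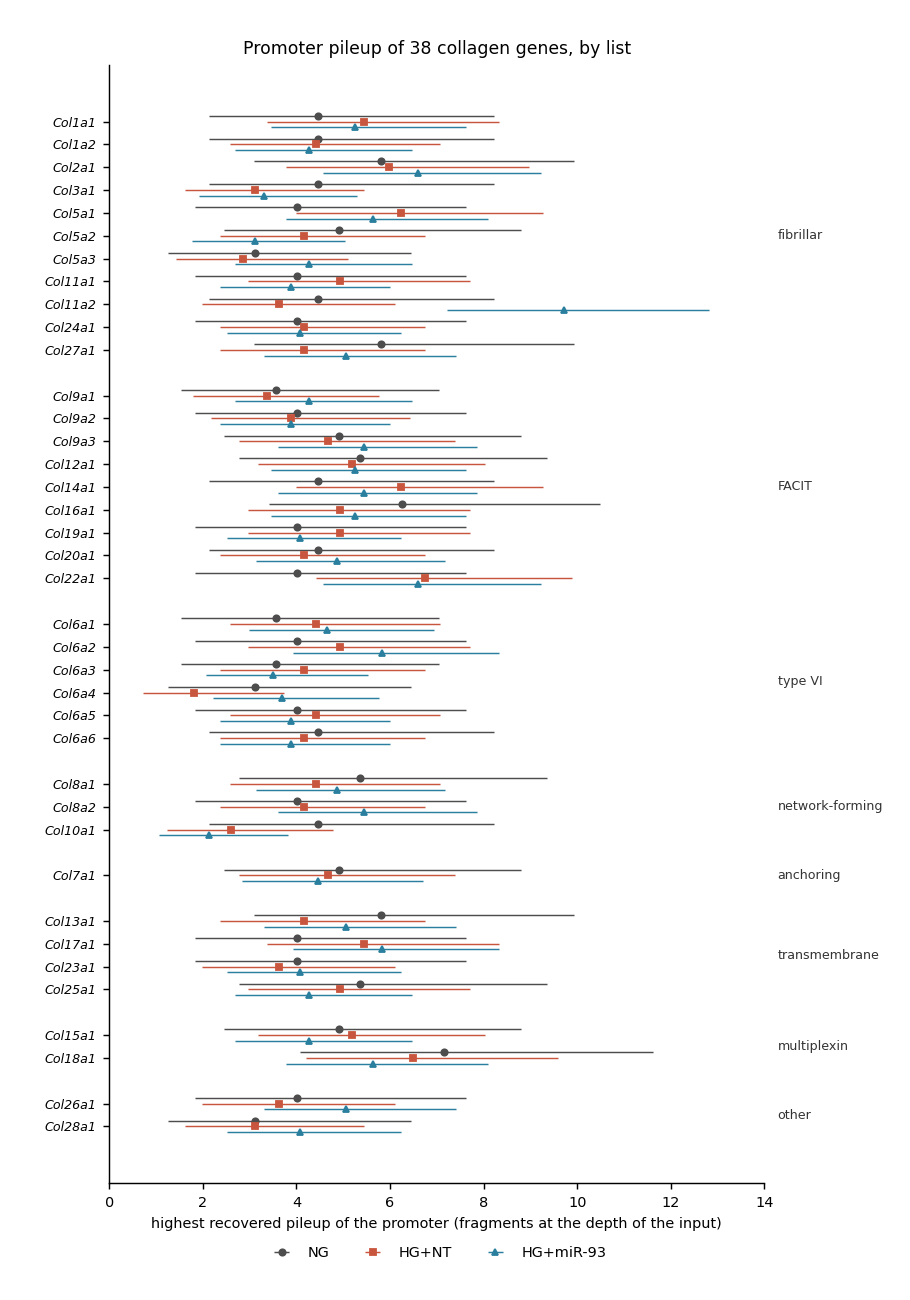
Highest recovered pileup at each of the 38 collagen promoters, as fragments scaled to the input's depth, with lines for the 95% exact Poisson intervals of each list (counting error only). The intervals of the 3 lists overlap at every gene except *Col11a2*, where HG+miR-93 stands at 9.72 and HG+NT at 3.64.

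Summits near the TSS were fewest in HG+miR-93. A peak overlapping the promoter had its summit within 500 nt of a TSS at 25 of 38 collagen genes in NG (65.8%, 95% Wilson interval 49.9% to 78.8%, background 74.7%). It was 24 for HG+NT (63.2%, 47.3% to 76.6%, background 70.9%) and 17 for HG+miR-93 (44.7%, 30.2% to 60.3%, background 71%). These intervals treat the genes as independent draws, which they are not. The median distance of the nearest summit was 288.5, 191.5 and 600.5 nt, beside 190, 188 and 193 nt for all genes. Within 250 nt lay the nearest summits of 16, 21 and 8 collagen genes (42.1%, 55.3% and 21.1%), against 57.9%, 57% and 56.7% of all genes, so that the share in HG+NT was near the background. In HG+miR-93 the collagen summits were thus the farthest from their TSSs, and this was the list with the high ranks by fold.

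**Figure D3:**
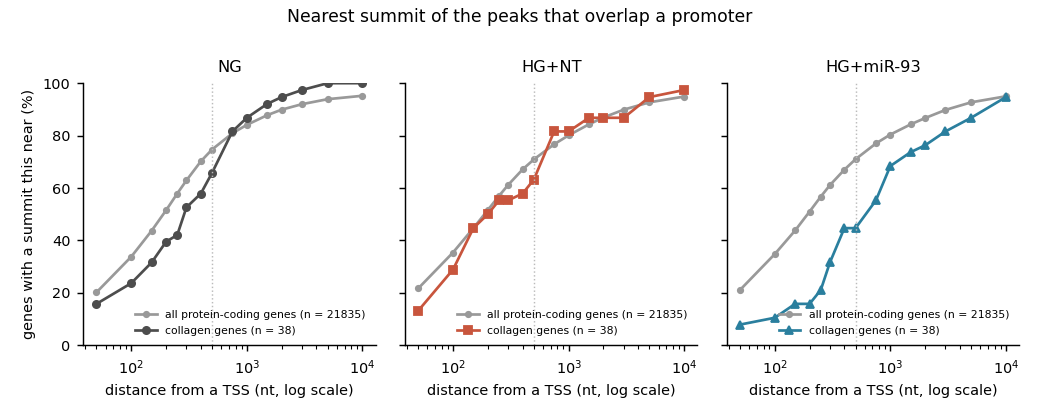
Share of genes (%) with a summit of a promoter peak within a given distance of a TSS (nt, log scale), for 38 collagen genes (coloured) and 21835 protein-coding genes (grey) in each list; the dotted line marks 500 nt. In HG+miR-93 the collagen curve lies below that of all genes at each distance plotted, with 44.7% against 71% at 500 nt, while from 750 nt on the NG curve lies above that of all genes and the HG+NT curve crosses it.

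Among the 20000 peaks with the highest −log10 p of each list, at least 1 overlapped the promoter of 4 collagen genes for NG (10.5%, background 33.5%), 6 for HG+NT (15.8%, background 25.9%) and 13 for HG+miR-93 (34.2%, background 21.6%). Peaks tied in fold and p at the border would have added 3 genes in NG (*Col10a1*, *Col20a1* and *Col3a1*) and 1 in HG+miR-93 (*Col23a1*). In NG and HG+miR-93 most of these strong peaks had their summits away from the promoter. With the summit within 500 nt, only *Col16a1* remained in NG (1 of 38, background 28.3%), *Col14a1*, *Col18a1*, *Col19a1* and *Col6a5* in HG+NT (4 of 38, background 19.5%), and *Col6a2* and *Col9a1* in HG+miR-93 (2 of 38, background 14.7%). The strongest peak by fold in HG+miR-93 had a median width of 4900 bp at collagen genes and 4248 bp at all genes, and a median local input mean of 1.8 against 2. In NG the widths were 2994 and 3409 bp and the input means 1.7 and 2. Whether width or input had a part in the ranks was not tested.

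**Figure D4:**
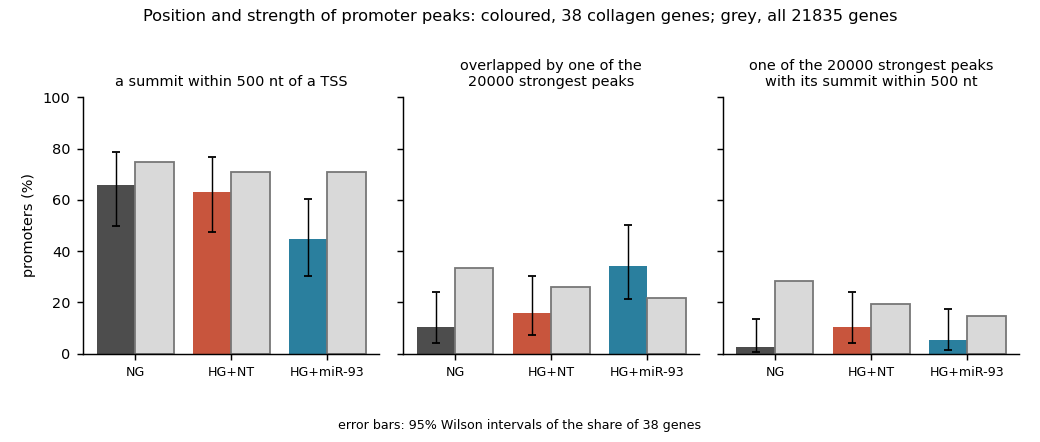
Share of promoters (%) with a summit within 500 nt (left), overlapped by one of the 20000 strongest peaks of the list (middle) and overlapped by one of these with its summit within 500 nt (right), for 38 collagen genes (coloured, error bars 95% Wilson intervals) and all 21835 genes (grey). The collagen share in the middle panel is 10.5% in NG and 34.2% in HG+miR-93, but in the right panel it is at most 10.5% in any list.

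The 11 genes of fibrillar collagens had median percentiles by fold of 40.6, 46.0 and 72.2, and by pileup of 37.97, 35.1 and 36.4. By fold 5 of 11 were higher in HG+NT than in NG, while HG+miR-93 was above HG+NT at 9 and above NG at 7 (50.2%, 50.2% and 49.7% of all genes). Type I collagen, the most abundant collagen of bone, tendon and scar, is made from *Col1a1* and *Col1a2*. *Col1a1* (chr11:94936224-94953042, plus strand) had pileups of 4.47 (interval 2.14 to 8.21), 5.45 (3.38 to 8.34) and 5.25 (3.46 to 7.63), with percentiles by fold of 41.1, 69.5 and 75.9. Its summits lay in introns 1434, 1268 and 6093 nt downstream of the TSS. A second, weaker NG peak had its summit 23 nt from the TSS, and no other *Col1a1* summit was within 500 nt in any list. *Col1a2* (chr6:4504814-4541544, plus strand) had pileups of 4.47 (2.14 to 8.21), 4.42 (2.57 to 7.07) and 4.28 (2.68 to 6.47), which differed by less than their intervals. By fold it stood at 46.4, 55.0 and 23.2, the other direction from *Col1a1* in HG+miR-93. The *Col1a2* summits lay 3468 nt upstream in NG, 668 nt downstream in HG+NT and, for HG+miR-93, 35 nt downstream in an untranslated exon. Only the last was at the promoter itself.

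This last summit fell in the promoter sequence of the RefSeq start of *Col1a2* (chr6:4505368-4505667, plus strand, GRCm38.p6), 300 bases from 250 before to 50 after the start. It is shown with that of *Col3a1* (chr1:45311288-45311587, plus strand), which held no summit of a strongest peak. Capitals mark the TATA box letters TATAAA, the CCAAT box letters and the GC box letters GGGCGG, on either strand. The HG+miR-93 summit of *Col1a2* is base 161 counted from the 5′ end, between CCAAT at bases 142 to 146 and its reverse complement ATTGG at 251 to 255. This summit is upstream of the RefSeq start, whereas the 35 nt downstream given above were counted from a different TSS, of GENCODE.
Col1a2: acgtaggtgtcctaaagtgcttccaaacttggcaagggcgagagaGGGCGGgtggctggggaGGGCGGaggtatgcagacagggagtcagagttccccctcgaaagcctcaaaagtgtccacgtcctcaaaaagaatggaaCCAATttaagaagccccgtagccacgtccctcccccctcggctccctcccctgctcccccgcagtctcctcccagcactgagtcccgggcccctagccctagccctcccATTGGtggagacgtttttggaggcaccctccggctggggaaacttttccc
Col3a1: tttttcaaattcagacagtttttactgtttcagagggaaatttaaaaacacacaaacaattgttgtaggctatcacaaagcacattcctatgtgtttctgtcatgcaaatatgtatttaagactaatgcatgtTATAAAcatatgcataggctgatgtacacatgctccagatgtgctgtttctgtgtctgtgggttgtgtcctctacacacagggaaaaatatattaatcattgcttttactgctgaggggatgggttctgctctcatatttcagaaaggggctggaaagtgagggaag
The *Col1a2* window held 13 CpG dinucleotides and 61.0% G and C, and that of *Col3a1* held no CpG and 37.7% G and C.

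*Col3a1* (chr1:45311538-45349706, plus strand), the chain of type III collagen of vessels and soft tissue, had pileups of 4.47 (2.14 to 8.21), 3.12 (1.61 to 5.44) and 3.30 (1.93 to 5.29). Its percentiles by fold were 72.3, 46.0 and 56.5. The NG value was the highest by both measures, and the intervals overlapped. The summits lay 930 and 1071 nt downstream in NG and HG+NT and 134 nt downstream in HG+miR-93. *Col5a2* (chr1:45374321-45503282, minus strand), a chain of the type V collagen that nucleates type I fibrils, lies 24614 bp from *Col3a1* on the opposite strand. It had the lowest mean percentile of the 38 genes, with 8.69, 7.03 and 8.10 by fold, and pileups of 4.91 (2.45 to 8.79), 4.16 (2.37 to 6.75) and 3.11 (1.78 to 5.05). The low fold in each list went with a low rank by pileup only in HG+miR-93, at 16.95, against 43.4 in NG.

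*Col5a1* (chr2:27886425-28039514, plus strand), the other main chain of type V, had pileups of 4.02 (1.84 to 7.63), 6.23 (3.99 to 9.27) and 5.64 (3.77 to 8.09), at percentiles by fold of 31.2, 40.6 and 78.6. Both high-glucose lists were above NG by both measures, and the intervals overlapped. Its highest summits lay 101 and 212 nt upstream of the TSS under high glucose, and 649 nt downstream in NG. *Col5a3* (chr9:20770050-20815067, minus strand) ranked 17.1, 5.31 and 81.2 by fold, with pileups of 3.13 (1.26 to 6.44), 2.86 (1.43 to 5.11) and 4.28 (2.68 to 6.47). The high HG+miR-93 rank came from a peak of 3434 bp whose summit lay at -2581 nt, upstream of the *Col5a3* TSS, and at -855 nt of that of the retinol dehydrogenase gene *Rdh8*, the nearest one.

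*Col11a2* (chr17:34039437-34066685, plus strand), a chain of the type XI collagen of cartilage, had the largest pileup of any collagen gene in HG+miR-93. Its pileups were 4.47 (2.14 to 8.21), 3.64 (1.99 to 6.10) and 9.72 (7.21 to 12.8), and its percentiles by fold 20.02, 3.76 and 87.3. The ratio of HG+miR-93 to HG+NT was 2.67. The HG+miR-93 peak was 12159 bp wide and its summit lay 7622 nt upstream of *Col11a2*, 3 nt from the TSS of *Rxrb*, a retinoid X receptor gene. At the *Rxrb* promoter itself (chr17:34031812-34038399) the pileup was 10.3 (6.51 to 15.4), 13.5 (10.1 to 17.7) and the same 9.72, from peaks of 2454, 7687 and 12159 bp. The *Rxrb* intervals overlapped in the 3 lists, and in HG+miR-93 alone the same peak covered both promoters. Counting summits within 500 nt alone, no collagen gene had a pileup in HG+miR-93 at least 1.5 times that of HG+NT, among the 10 that kept such a summit in both lists.

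*Col2a1* (chr15:97975602-98004695, minus strand), the chain of cartilage type II collagen, was one of the 4 highest collagen genes by mean percentile. It had pileups of 5.81 (3.09 to 9.93), 5.97 (3.79 to 8.96) and 6.61 (4.58 to 9.23) and percentiles by fold of 70.7, 63.7 and 93.3. Its summits lay 2805, 4632 and 14285 nt downstream, inside the gene, so that none was at the promoter. *Col2a1* lies on chromosome 15, where promoters as a whole ranked higher in the high-glucose lists, with median percentiles by fold of 55.3, 76.0 and 78.8. Ranked by fold over the median of its chromosome, *Col2a1* stood at 68.7, 37.2 and 73.2. Of the fibrillar genes not named so far, *Col11a1*, *Col24a1* and *Col27a1* had pileups between 3.89 and 5.81, and *Col24a1* moved least, at 4.02, 4.16 and 4.08.

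The 9 FACIT genes had higher medians by fold than the fibrillar ones in each list, at 62.7, 66.7 and 78.1, and medians by pileup of 37.97, 49.4 and 55.4. By fold 5, 4 and 5 of 9 were higher in the 3 comparisons, near the 50.2%, 50.2% and 49.7% of all genes. *Col16a1* (chr4:130047840-130099283, plus strand), a minor fibril-associated collagen of skin and cartilage, had pileups of 6.25 (3.42 to 10.5), 4.93 (2.97 to 7.71) and 5.25 (3.46 to 7.63), with percentiles of 89.8, 86.1 and 78.1. It was among the 4 highest collagen genes by fold, and the only one with a strong NG peak centred at its promoter. Ranked by pileup it stood at 54.95, 49.4 and 55.4. That summit lay 111 nt upstream of the TSS. The promoter sequence (chr4:130047590-130047889, plus strand) shows the letters under it, since the summit is base 140 and falls within CCAAT at bases 138 to 142.
Col16a1: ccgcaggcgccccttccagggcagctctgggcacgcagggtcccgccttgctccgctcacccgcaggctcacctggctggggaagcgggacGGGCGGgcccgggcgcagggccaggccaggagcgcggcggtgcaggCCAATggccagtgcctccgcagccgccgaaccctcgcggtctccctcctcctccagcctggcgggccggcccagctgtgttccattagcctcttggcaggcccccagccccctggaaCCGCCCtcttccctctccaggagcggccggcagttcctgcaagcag
The capitals mark the same motifs as above, and a match of letters is no evidence that a factor was bound.

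*Col12a1* (chr9:79598991-79718831, minus strand), a collagen of dense connective tissue, stood at 83.7, 28.6 and 93.4 by fold, a change of -55.1 points to HG+NT and of 64.7 from there to HG+miR-93. Its pileups were nearly level, at 5.36 (2.77 to 9.36), 5.19 (3.17 to 8.02) and 5.25 (3.46 to 7.63). The pileups at the highest summits did not show the swing seen by fold. *Col14a1* (chr15:55307750-55520803, plus strand), which binds fibrils in skin and tendon, had percentiles of 35.1, 80.9 and 72.9 and pileups of 4.47 (2.14 to 8.21), 6.23 (3.99 to 9.27) and 5.44 (3.62 to 7.86), with summits 595, 202 and 390 nt downstream. *Col22a1* (chr15:71795795-72034227, minus strand), found at tissue junctions, had pileups of 4.02 (1.84 to 7.63), 6.75 (4.41 to 9.89) and 6.61 (4.58 to 9.23), and the highest summits in the high-glucose lists lay 6729 and 6844 nt inside the gene. Both lie on chromosome 15, where the median promoter pileup was 6.70, 7.01 and 7.19. By fold over the chromosome's median, *Col14a1* stood at 31.9, 55.8 and 42.8, a smaller difference between NG and the high-glucose lists than without this scaling.

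*Col9a3* (chr2:180597790-180622189, plus strand) and *Col9a2* (chr4:121039385-121055322, plus strand) encode chains of type IX collagen, which coats cartilage fibrils. *Col9a3* ranked 81.3, 84.3 and 43.4 by fold but had pileups of 4.91 (2.45 to 8.79), 4.67 (2.77 to 7.39) and 5.44 (3.62 to 7.86), with the HG+miR-93 summit 11724 nt downstream. *Col9a2* was among the 4 lowest collagen genes, at 47.2, 15.3 and 6.21, with pileups of 4.02, 3.90 and 3.89. The local input mean was 1.5, 3 and 4 at the summits of its strongest peaks by fold, which lay at 1059, 561 and -377 nt. Its number of fragments at the input's depth was level. *Col19a1* (chr1:24261890-24587472, minus strand) stood at 62.7, 87.8 and 51.0 and had pileups of 4.02 (1.84 to 7.63), 4.93 (2.97 to 7.71) and 4.08 (2.53 to 6.24). It lies 9205 bp from *Col9a1*, the remaining type IX gene, on the opposite strand, and *Col9a1* differed from it in HG+miR-93, at 81.2 with a summit 69 nt from a TSS.

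Type VI collagen makes the beaded filaments that link cells to the matrix, from the chains of *Col6a1*, *Col6a2* and a further chain that *Col6a3* to *Col6a6* can supply. The 6 genes had medians by fold of 45.9, 35.1 and 53.8 and by pileup of 27.2, 37.7 and 28.8. *Col6a2* (chr10:76595762-76623630, minus strand) was one of the 4 highest, at 62.7, 82.0 and 96.98, with pileups of 4.02 (1.84 to 7.63), 4.93 (2.97 to 7.71) and 5.83 (3.93 to 8.32). The NG summit was 44 nt past a TSS and that of HG+miR-93 was 1 nt from one, both in an untranslated exon, whereas the HG+NT summit fell in a coding exon 14580 nt downstream. In HG+miR-93 it was the collagen promoter with the highest fold and had a summit at its TSS, and its intervals overlapped in the 3 lists. *Col6a1* (chr10:76708792-76726168, minus strand), 85161 bp upstream on the same strand, stood at 43.4, 21.8 and 29.4, with pileups of 3.57 (1.54 to 7.04), 4.42 (2.57 to 7.07) and 4.66 (2.99 to 6.94). Fold and pileup disagreed on the order of its lists. *Col6a3* (chr1:90765923-90843971, minus strand) stood at 48.3, 2.86 and 35.5, with pileups of 3.57 (1.54 to 7.04), 4.16 (2.37 to 6.75) and 3.498 (2.07 to 5.53). Its rank in HG+NT was the lowest of any collagen gene there. The local input mean was 5 at that summit, 725 nt downstream, and 1.44 at the NG summit, 474 nt downstream.

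*Col6a6*, *Col6a5* and *Col6a4* lie in this order on the minus strand of chromosome 9, with gaps of 27917 and 28810 bp. *Col6a4* (chr9:105989454-106096783) had pileups of 3.13 (1.26 to 6.44), 1.82 (0.731 to 3.75) and 3.69 (2.22 to 5.77), of which the second was the smallest of any collagen gene, and percentiles of 17.1, 4.10 and 34.1. The ratio of HG+miR-93 to HG+NT was 2.03, from 19 and 7 fragments. *Col6a5* (chr9:105856078-105960643) was highest in HG+NT, at 33.5, 79.4 and 72.2, with pileups of 4.02 (1.84 to 7.63), 4.42 (2.57 to 7.07) and 3.89 (2.37 to 6.003). *Col6a5* was thus highest in the list where its neighbour *Col6a4* was lowest.

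The network-forming genes were lower by fold in the high-glucose lists, with medians of 62.7, 25.8 and 6.04, and all 3 of them lower in HG+NT than in NG (50.2% of all genes were higher). By pileup their medians were 37.97, 35.1 and 48.4. *Col10a1* (chr10:34389981-34397085, plus strand), made by hypertrophic cartilage, had percentiles of 72.3, 25.8 and 4.43 and pileups of 4.47 (2.14 to 8.21), 2.60 (1.25 to 4.78) and 2.14 (1.07 to 3.83). It was the only collagen gene with a pileup at least 1.5 times below NG in both high-glucose lists, from 10, 10 and 11 fragments at rising depth, and its intervals still overlapped. *Col8a1* (chr16:57624258-57754737, minus strand), of the membrane under corneal and vascular endothelium, ranked 30.2, 3.398 and 6.04, with pileups of 5.36 (2.77 to 9.36), 4.42 (2.57 to 7.07) and 4.86 (3.14 to 7.17) and summits 568 to 723 nt upstream in the 3 lists. It was among the 4 lowest by fold, over local input means of 3, 5 and 5. *Col8a2* went the other way in HG+miR-93, at 95.3, from a peak of 20748 bp. The anchoring collagen gene *Col7a1* (chr9:108953586-108984875, plus strand), which ties skin epithelium to the dermis, stood at 78.9, 26.9 and 25.5 with pileups of 4.91 (2.45 to 8.79), 4.67 (2.77 to 7.39) and 4.47 (2.83 to 6.71). Under high glucose its summit was at the same place in both lists, 3305 nt upstream and between genes. The nearest TSS, 2864 nt away, was one of the neighbouring gene *Uqcrc1*. The highest promoter summits of *Uqcrc1* were other ones, 24 and 29 nt from a TSS.

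The 4 transmembrane collagens, which are anchored in the cell membrane and can be shed from it, had medians by fold of 37.7, 51.2 and 78.7, and all 4 were higher in HG+miR-93 than in either other list (50.2% and 49.7% of all genes). By pileup the medians were 39.5, 42.3 and 44.2. *Col25a1*, mainly of neurons, was the only collagen gene whose strongest peak had its summit in the RefSeq promoter window in all 3 lists. Its pileups were 5.36 (2.77 to 9.36), 4.93 (2.97 to 7.71) and 4.28 (2.68 to 6.47), and its percentiles 30.2, 32.4 and 47.0. The window (chr3:130180595-130180894, plus strand) is shown because the summits are bases 249, 290 and 4 of it.
Col25a1: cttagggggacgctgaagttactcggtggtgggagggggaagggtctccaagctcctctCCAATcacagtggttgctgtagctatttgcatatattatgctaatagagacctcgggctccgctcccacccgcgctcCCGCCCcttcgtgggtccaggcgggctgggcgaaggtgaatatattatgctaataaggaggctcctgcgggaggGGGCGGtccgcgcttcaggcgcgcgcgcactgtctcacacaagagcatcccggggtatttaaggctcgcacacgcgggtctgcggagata
*Col17a1*, of the hemidesmosomes of skin, lies on chromosome 19, whose median percentile by fold was 54.1, 68.3 and 68.1. Its own was 31.8, 40.6 and 94.9, with the HG+miR-93 summit 4454 nt upstream.

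*Col18a1* (chr10:77052178-77166548, minus strand) encodes type XVIII collagen, a heparan sulphate proteoglycan of basement membranes and the source of endostatin. It had the highest mean percentile by fold of the 38 genes, at 89.0, 94.9 and 89.1. Its pileups were 7.15 (4.09 to 11.6), 6.49 (4.20 to 9.58) and 5.64 (3.77 to 8.09), at percentiles by pileup of 61.6, 68.8 and 61.9. The gene has 5 TSSs, and 6, 4 and 5 peaks overlapped its promoters. Its summits lay in introns 550, 110 and 799 nt downstream of a TSS. The intervals overlapped, and no list had it below 89.0 by fold. *Col15a1* (chr4:47208161-47313167, plus strand), the other multiplexin of basement membranes, stood at 27, 71.1 and 59.0, with pileups of 4.91 (2.45 to 8.79), 5.19 (3.17 to 8.02) and 4.28 (2.68 to 6.47). Its HG+NT peak was 22240 bp wide with a summit 5832 nt downstream. Of the 2 genes outside these classes, *Col26a1* (chr5:136741759-136883209, minus strand) stood at 2.85, 19.04 and 87.2 and *Col28a1* (chr6:7997808-8192617, minus strand) at 37.7, 46.0 and 12.5. The *Col26a1* pileups were 4.02 (1.84 to 7.63), 3.64 (1.99 to 6.10) and 5.05 (3.30 to 7.40), and those of *Col28a1* 3.13 (1.26 to 6.44), 3.12 (1.61 to 5.44) and 4.08 (2.53 to 6.24). The change from NG to HG+miR-93 at *Col26a1* was the largest by fold of all, 84.3 points. The local mean of the same input was 4 at the NG summit, 203 nt from a TSS, and 1.6 at the HG+miR-93 summit, 937 nt away.

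The strongest peaks seldom had their summits at the same place in different lists. Within 150 nt of each other lay the summits of HG+NT and NG at 5 collagen genes (13.2%), those of both high-glucose lists at 3 (7.89%) and those of HG+miR-93 and NG at 5 (13.2%), against 26.7%, 30.7% and 25.5% of all genes. At most collagen promoters the lists thus compared different positions. By annotation, the summits lay in an intron of the gene itself at 19, 27 and 20 of the 38. They lay in its coding exons at 2, 4 and 0, and in its untranslated exons at 4, 2 and 5. The others were between genes at 12, 4 and 11, and in another gene at 1, 1 and 2. These shares were not computed over all genes, so whether they are particular to collagens is not known.

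Collagen promoters were mostly poor in CpG. With a CpG-rich promoter defined as an observed over expected ratio of at least 0.6 and at least 50% G and C over 500 nt on either side of the main TSS, 10 of 38 collagen genes (26.3%) and 44.8% of all genes were CpG-rich. CpG-poor collagen promoters had median percentiles by pileup of 34.6, 40.2 and 36.4, near or above the 31.2, 29.9 and 28.8 of all CpG-poor promoters. By pileup the 10 CpG-rich ones, among them *Col5a1*, *Col12a1* and *Col2a1*, had 45.6, 42.3 and 52.0, whereas all CpG-rich promoters had 71.7, 71.1 and 72.3. By fold the 10 had 42.05, 44.5 and 79.4, against 66.3, 63.0 and 58.4. They were thus below all CpG-rich promoters by both measures in NG and HG+NT, but above them by fold in HG+miR-93. A summit within 500 nt was present at 7, 9 and 4 of these 10 genes, and at 90.3%, 88.6% and 87.3% of all CpG-rich promoters. For 30 of the 38 genes RefSeq promoters of GRCm38.p6 were at hand, 33 in number. *Col12a1*, *Col14a1*, *Col1a1*, *Col22a1*, *Col26a1*, *Col2a1*, *Col5a2* and *Col9a3* had no entry. The TATAAA letters were found on either strand in 5 of the 33 and in 12.1% of 20150 coding promoters, CCAAT in 10 and in 37.8%, and GGGCGG in 19 and in 47.8%.

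The genes that make and modify collagen had higher median pileups than the collagens in each list, and higher median percentiles by fold in NG and HG+NT only. The 29 genes of synthesis and processing (hydroxylases, chaperones, procollagen proteases and lysyl oxidases) had median percentiles by fold of 56.3, 68.3 and 69.3 and median pileups of 6.25, 5.71 and 5.83. *P4hb*, protein disulphide isomerase and a subunit of prolyl 4-hydroxylase, had the highest pileup in each list, from 16.5 to 20.5. The highest mean percentiles by fold were those of *Adamts14*, *P3h3* and *Bmp1*, and the lowest those of *Pcolce2*, *Colgalt2* and *Tll1*. Ranked by pileup, *Tll1* was not low, at 54.95, 71.1 and 74.4. By fold 16, 13 and 18 of 29 were higher in the 3 comparisons (50.2%, 50.2% and 49.7% of all genes). Past 1.5 times by pileup, 1 was higher and 2 lower in HG+NT than in NG (background 5.3% and 16.9%), none differed between the high-glucose lists (2.17% and 5.68%), and none was higher and 5 were lower in HG+miR-93 than in NG (4.26% and 22.2%). A summit lay within 500 nt at 28, 21 and 22 of the 29, against 74.7%, 70.9% and 71% of all genes. The 9 collagen receptors had medians by fold of 50.9, 28.6 and 39.2, with the discoidin receptor *Ddr1* highest and the integrin *Itga1* lowest by mean percentile. By pileup *Itga1* was close to *Ddr1*, at 8.49, 7.79 and 7.58 against 8.93, 7.53 and 7.97. The 4 type IV genes compared, *Col4a1* to *Col4a4*, form basement membranes and are transcribed in pairs from shared promoters. Their medians by fold were 82.6, 58.5 and 59.7, and their median pileups of 7.15, 6.88 and 5.83 were above those of the other collagens. In HG+miR-93 this did not hold for both pairs. There *Col4a3* and *Col4a4* had the same pileup of 4.47, below the other collagens' median of 4.57, and *Col4a1* and *Col4a2* had 7.19. These lists were compared with the collagens as a description, with no test.

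The lists hold no RNA, so the cell type could be checked only at promoters. The 8 podocyte markers had median percentiles by fold of 45.6, 69.7 and 52.7. The 5 mesangial or fibroblast markers, cells that make interstitial collagen, had 62.7, 36.4 and 82.0 and pileups from 3.57 to 5.81 in NG, 4.42 to 8.31 and 4.28 to 6.996 under high glucose. The 4 endothelial markers had medians of 50.9, 65.1 and 76.0, the 3 leukocyte markers 30.5, 48.4 and 71.2, and the 4 tubular markers 43.3, 59.0 and 60.6. By fold the podocyte median in NG was below the mesangial and endothelial ones. It was the highest of the marker medians by fold in HG+NT and the lowest in HG+miR-93, so that this order was not stable between lists. By pileup the podocyte medians were 44.7, 47.2 and 49.9. In NG this was above the mesangial (43.4), endothelial (37.3) and leukocyte (43.4) medians and below the tubular one (61.6). The part of other cells in the collagen values was not tested.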

How the data were processed

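DNase-Seq was made from 2 replicates of each condition and 1 input. Per the study's methods, the authors used TrimGalore! for trimming and Bowtie for mapping to mm10, removed duplicate reads, and ran MACS2 on the joined replicates against the input with DNase-seq parameters whose values are not given in the sources used here. The deposited fold is a ratio of the fragments at a summit to the local mean of the input, each plus 1. The −log10 p was deposited by the authors for each summit, and a further score, the −log10 q, is the authors' adjusted form of it.

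Fragments and the local input mean were solved from fold and p for each peak, on steps of 0.02 of the mean, and where more than 1 solution was possible the lowest number of fragments was kept. The solver was tested on simulated data. Promoters were 500 nt on either side of 54361 TSSs of 21853 genes (GENCODE vM21), overlapped by at least 1 bp. Folds were ranked within each list. Python 3.11.15, numpy 2.4.6, pandas 2.3.3 and scipy 1.17.1 were used. The collagen genes, the other gene lists and the alternatives were chosen with earlier results of these data known. Genes were named if they encode the main type I, III, V and VI chains, if they had the 4 highest or lowest mean percentiles or the 3 largest changes in either direction between any lists, or if their intervals did not overlap; further members were named by class. Alternatives changed the measure ranked, the promoter width, the peaks kept and the thresholds. Values of single podocyte markers are not reported here.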

Additional observations from a re-analysis of the deposited data

How the results depend on the processing

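No paired analysis was possible because the deposited lists join the replicates of each condition, and for the same reason no replicate could be left out. Of 105 alternative values of 21 results, 76 stayed within the 95% interval of the median over the collagen genes or, for counts, within 1.5 times, and 29 moved. With summits within 500 nt only, 7 genes could be compared, and 4, 3 and 4 of them had a higher percentile (HG+NT over NG, HG+miR-93 over HG+NT, HG+miR-93 over NG); the median change between the high-glucose lists was then -3.33, the median NG percentile 28.8, while by pileup 0 of 10 genes were higher and 1 lower in the second comparison and 0 of 11 higher in the last. Ranked by pileup, the HG+miR-93 median was 42.5. Over the chromosome's median pileup, 4 genes were higher and 0 lower in HG+NT against NG (9.97% and 8.59% of all genes), and 7 higher and 1 lower for HG+miR-93 against NG (8.71% and 11.5%). At a ratio of 2, these counts were 0 and 0 (1.03% and 3.79%), and 1 and 1 (0.916% and 4.72%). With promoters of 1000 nt, 1 gene was lower in HG+NT against NG (16.5%) and 1 higher between the high-glucose lists (1.98%). The solution with the most fragments gave 4 higher genes for HG+miR-93 against HG+NT (2.91%) and 4 against NG (4.95%). Summits within 250 nt numbered 16 in NG and 8 in HG+miR-93, and within 1000 nt 27 in the latter when the peaks of promoters of 1000 nt were counted, against 26 with those of 500 nt. The 5000 strongest peaks overlapped 2, 1 and 6 promoters (18.7%, 13.9% and 10.4%), and the 50000 strongest 13 in NG and 16 in HG+NT (38.2% and 44.6%). Counts were compared as raw numbers. With 7 genes left, no count could come within 1.5 times of the 19, 25 or 24 of 38, so these moves were fixed in advance. A stricter cutoff can only lower a count or leave it, and a looser one can only raise it or leave it. The number of moves is therefore no measure of stability. The cause of the other moves was not tested, and with summits within 500 nt fewer genes were compared throughout. Of 399 alternative percentiles of named genes, 378 stayed within their counting intervals. Many of these intervals were wide, in NG from 11.2 to 98.9 at *Col10a1* and from 2.60 to 91.9 at *Col1a1*. Staying within them therefore says little about stability. Between the high-glucose lists a pileup ratio of 2.03 at *Col6a4*, from 19 and 7 fragments, left the intervals overlapping. The ratio of 2.67 at *Col11a2* set them apart.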
